A study of Mus musculus with 2 samples.

Results

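Caspases and the proteins that switch them on carry out apoptosis. In the extrinsic route, the death receptor FAS binds the adaptor FADD, which gathers the initiator caspase-8, and CFLAR, a relative of caspase-8, tunes or blocks that step. In the intrinsic route, cytochrome c released from mitochondria lets APAF1 assemble into the apoptosome, which activates caspase-9, and both routes converge on executioner caspases, among them caspase-6. The majority of double-positive (DP) thymocytes, the CD4 and CD8 expressing cells of the thymic cortex, die by apoptosis unless their T-cell receptor selects them. The 8 genes described here were chosen by name for these roles: the receptor gene *Fas*, the adaptor gene *Fadd*, the initiator *Casp8* and its regulator *Cflar*, the apoptosome genes *Apaf1* and *Casp9*, and *Casp2* and *Casp6*, which encode an initiator-type and an executioner caspase. All 8 of 8 were found among the 21041 genes of the deposited RNA-seq table.

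RNA-seq was performed on DP thymocytes from WT mice and from mice deficient in *Cxxc1*, which encodes a CpG-binding subunit of the SETD1 complex that trimethylates lysine 4 of histone H3. The data hold 1 library of each genotype. The sample label gives the deficient genotype as *Cxxc1*+/-, although its title names a knockout, by which it was grouped. The study used *Cxxc1* fl/fl mice as WT and crossed them with mice expressing Cre from the human *CD2* promoter, which deletes *Cxxc1* early in thymocyte development and in other immune cells, but the Cre line behind these libraries is not stated outright. Mice in the study were 3 to 4 weeks of age except where it states otherwise, and it states no other age for the RNA-seq. The sex of the mice and the number pooled are not given in the sources used here. Each gene has 1 normalized expression value per library. Genes are called high where the mean of both values is at least 100, moderate from 50 to under 100, and low under 50. From the steps between low values and the annotated transcript lengths, 1 read on 1 kb of transcript was worth 4.06 in WT and 4.70 in the deficient library, so the values are levels per transcript length and can be compared between genes. The ratio of a gene is its value in the deficient library over its value in WT, with values under 1 raised to 1. With 1 library per genotype no difference between genotypes was tested, and the 95% Clopper-Pearson intervals of ratios rest on approximate read numbers and cover counting error only. In such bulk samples, fewer cells of a type and less RNA per cell cannot be told apart.

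Approximately 1404131 reads in WT and 724538 in the deficient library fell on 19090 genes with a known length, so intervals are wider in the latter. The targeted gene *Cxxc1* reached 91 in WT and 50 in the deficient library. The ratio was 0.549 (interval 0.338 to 0.877), but it was 1.1 when the libraries were set to the same median over high genes. By quantitative PCR, the paper found *Cxxc1* mRNA almost undetectable in DP cells of its deficient mice. It also reports loss of the protein by western blot. Cre removes only some exons of *Cxxc1* in those mice, whereas each value here covers a whole gene. The value of 50 is thus not a measure of intact *Cxxc1* mRNA, and the exons its reads fell on were not tested. All 13 DP marker genes were lower in the deficient library (median 1859 in WT and 507 there), where *Rag1* still had 5058, *Cd4* 1257 and *Cd8a* 507. Of the 13, 12 were high genes, and 95.2% of all high genes were lower, so this count is not particular to DP markers. Of the 6 markers of the earlier double-negative stage, 5 were higher, where 37.2% of all genes were, and 1 was lower. They summed to 264 in WT and 556 in the deficient library. Most of this difference lay in *Il2ra* (63 and 207) and *Notch3* (56 and 167), while *Kit* had 35 and 36 and *Erg* 47 and 36. These genes were named after their values were seen. Olfactory receptor genes, which thymocytes are not known to use, had a 95th percentile of 53.95 in WT and 57 in the deficient library. The 11 macrophage and dendritic cell genes ranged from 19 to 101 in WT and from 4 to 107 in the deficient library, where 6 were lower and 5 higher; the defining gene *Lyz2* had 19 and 4, and the highest, *Itgam*, named after its values were seen, had 101 and 107. Marker sums in WT and in the deficient library were 196 and 167 for 6 B-cell genes, 426 and 369 for 11 macrophage and dendritic cell genes, 131 and 157 for 8 erythroid genes, 280 and 265 for 8 genes of NK, innate lymphoid and gamma-delta T cells, 315 and 257 for 9 genes of epithelium and stroma, and 600 and 439 for 8 genes of mature single-positive cells. The erythroid genes *Hbb-b2*, *Hba-a1* and *Hba-a2* were listed at 0 in both. Only uniquely mapped reads were kept, which can leave reads of genes with similar copies uncounted. These values of 0, and the erythroid sums, thus do not show that such RNA was absent. Genes of the Y chromosome were above 0 for 0 of 15 in WT and for 7 of 15 in the deficient library. The part of these differences in the results below was not tested.

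Of the 8 genes, *Fas* was the gene with the largest difference, 3.75-fold lower in the deficient library. *Casp2*, *Casp6*, *Cflar* and *Apaf1* were lower by 1.97-, 1.92-, 1.79- and 1.56-fold in the values as deposited. *Fadd* was equal in both libraries, and *Casp8* and *Casp9* had slightly higher values in the deficient library. For the 5 lower genes the interval of the ratio lay below 1, and for the other 3 it held 1. With reads counted on the shortest annotated transcript of each gene in place of the longest, the interval lay below 1 for *Fas* alone. The log2 ratios of the 8 genes had a median of -0.74, beside -0.20 over the 20125 genes above 0 in at least 1 library. At least 2-fold lower was 1 of the 8, where 17.4% of all genes were. Lower by any amount were 5 of the 8, where 60.0% of all genes were, and higher by any amount were 2, where 37.2% were, so these counts stood near the background. These directions depend on how the libraries are scaled. Under each of the 5 scalings tried, *Fas* was lower, while *Casp2*, *Casp6* and *Cflar* were higher, by at most 1.11-fold, when the libraries were set to the same median over high genes, and *Apaf1* was higher under that scaling and at 1.01 with the same sum.

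**Figure D1:**
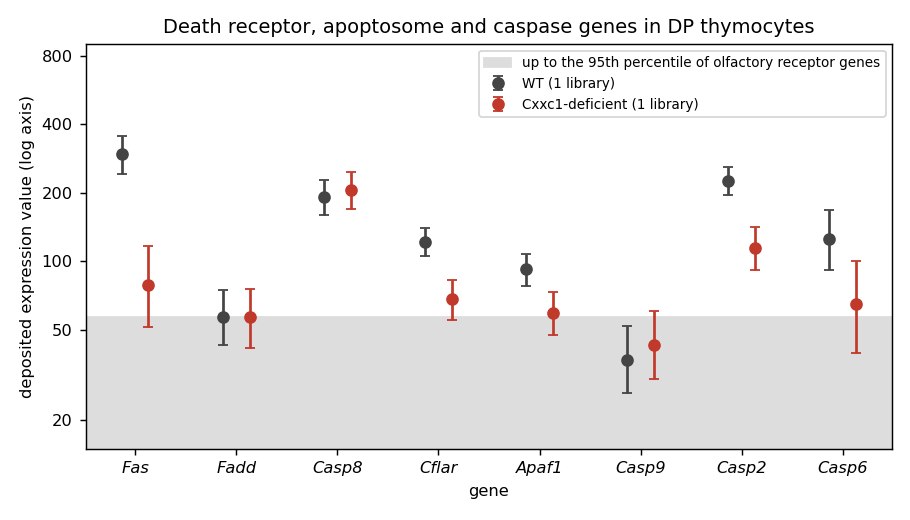
Deposited expression values (log axis) of the 8 genes in the WT and the *Cxxc1*-deficient library; points are the single values and bars are approximate 95% exact Poisson intervals of counting error, with values up to the 95th percentile of olfactory receptor genes shaded. *Fas* shows the widest gap between libraries, from 296 to 79, *Casp8* stays near 200 in both, and *Casp9* lies in the shaded range in both.

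The order of the levels changed between the libraries. In WT, *Fas* was highest at 296, followed by *Casp2* at 225, *Casp8* at 192, *Casp6* at 125, *Cflar* at 122, *Apaf1* at 92, *Fadd* at 57 and *Casp9* at 37. Counting intervals of neighbours in this order overlapped at each step except between *Apaf1*, from 77.7 to 108, and *Fadd*, from 43.1 to 74.4. In *Cxxc1*-deficient cells, *Casp8* was highest at 205, followed by *Casp2* at 114, *Fas* at 79, *Cflar* at 68, *Casp6* at 65, *Apaf1* at 59, *Fadd* at 57 and *Casp9* at 43. Here only *Casp8*, from 169 to 247, stood apart from the next gene, *Casp2*, from 91.7 to 142, and each gene from *Casp2* down overlapped with the next. *Fas* thus led in WT, and in the deficient library a single gene of the group was clearly above the rest. In WT, 7 of the 8 genes were above the 95th percentile of olfactory receptor genes, and in the deficient library 6 were.

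The death receptor gene *Fas* lies on chromosome 19 of mm9, from 34365149 to 34402260 (plus strand), and encodes the receptor for FAS ligand. Its value was 296 in WT and 79 in the deficient library, corresponding to approximately 108 and 25 reads. The ratio was 0.267, with an interval from 0.166 to 0.418. Of the 2472 high genes, 202 (8.17%) had a ratio as low or lower. The median log2 ratio of high genes was -1.08, and that of *Fas*, at -1.91, was lower still. Its ligand gene *Fasl* had 41 in WT and 64 in the deficient library, with an interval of the ratio from 0.809 to 2.85, so no difference in the ligand was detectable at this depth. The adaptor gene *Fadd* (chromosome 7, 151763223 to 151768368, minus strand) had 57 in both libraries, with an interval of the ratio from 0.657 to 1.49. *Fadd* lay near the level of genes not used in thymocytes, since 3.36% of olfactory receptor genes in WT and 5.35% in the deficient library were at least as high. An antisense transcript, Gm10574, covers 4195 bases of the *Fadd* locus, and the library kit named in the labels does not mark strand, so reads from both strands are counted together.

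*Casp8* and *Cflar* are neighbours on the plus strand of chromosome 1. *Cflar* runs from 58768352 to 58815728, *Casp8* from 58852218 to 58904347, and 36489 bases with 0 annotated genes lie between them. They differed in the comparison of the libraries. *Casp8* had a value of 192 in WT and 205 in the deficient library, approximately 122 and 113 reads, with a ratio of 1.07 and an interval from 0.824 to 1.40. *Cflar* had 122 and 68, approximately 198 and 95 reads, with a ratio of 0.557 and an interval from 0.431 to 0.714. Ratios between genes of 1 library do not depend on the scaling of the libraries. The value of *Cflar* over that of *Casp8* was 0.635 in WT and 0.332 in the deficient library, a change by a factor of 0.522 with a conditional exact 95% interval, on the longest transcripts, from 0.358 to 0.750. With reads taken on the longest transcripts, *Cflar* was thus lower in relation to *Casp8* beyond counting error, whichever factor scales the libraries. On the shortest transcript, the interval of the ratio of *Cflar* itself ran from 0.144 to 1.65 and held 1. The change relative to *Casp8* has no such interval here, so whether it exceeds counting error depends on the transcript. *Casp8* also stood apart from other genes of its level. Of the 2472 high genes, 95.2% were lower in the deficient library, and 81 (3.28%) had a ratio as high as that of *Casp8* or higher. *Cflar* lay nearer to the middle of its range: of 3657 moderate genes, 28.2% had a ratio as low or lower.

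**Figure D2:**
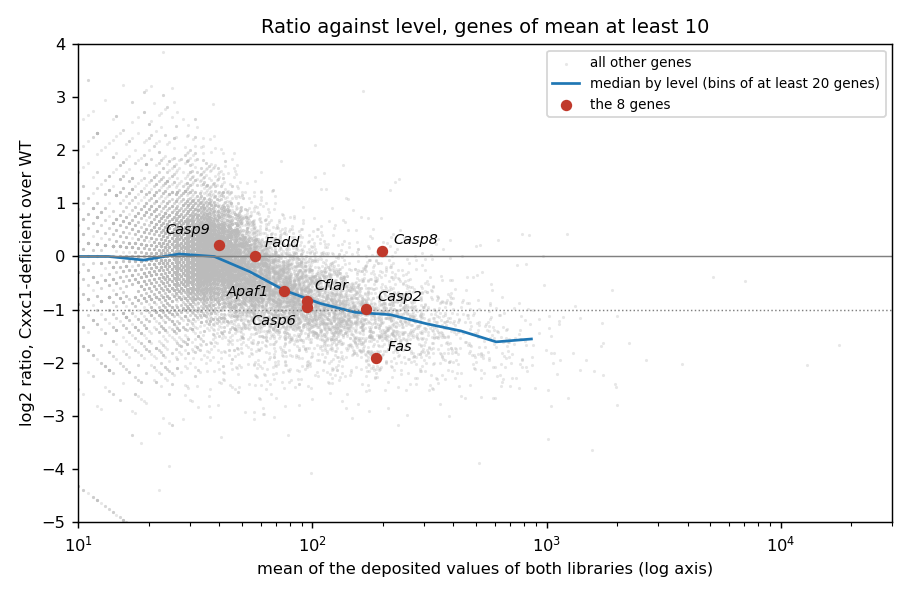
Log2 ratio of *Cxxc1*-deficient over WT against the mean of the deposited values of both libraries (log axis), for genes with a mean of at least 10; grey points are all other genes, the line is the median by level and red points are the 8 genes. The median falls as the level rises; *Casp2*, *Casp6*, *Cflar* and *Apaf1* lie near it, *Fas* at -1.91 lies below the median of high genes, -1.08, and *Casp8* at 0.09 lies above it.

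The same comparison was made for the other genes against *Casp8*. The value of *Fas* over that of *Casp8* went from 1.54 in WT to 0.385 in the deficient library, a 4.0-fold decrease with an interval from 2.36 to 6.91. For *Casp2* over *Casp8* the decrease was 2.11-fold, with an interval from 1.45 to 3.08, and for *Casp6* over *Casp8* it was 2.05-fold, from 1.12 to 3.96. For *Apaf1* over *Casp8* the decrease was 1.66-fold, from 1.13 to 2.45. *Casp8* was taken as the denominator after its values were seen, and 96.8% of high genes had a ratio as low as that of *Casp8* or lower, so a decrease relative to *Casp8* is not particular to these genes. *Fadd* over *Casp8* was 0.297 in WT and 0.278 in the deficient library, and the interval of this change, from 0.563 to 1.51, held 1. *Fas* was also lower in relation to *Cflar*, by 2.09-fold with an interval from 1.23 to 3.57. These ratios were chosen after the values were known and carry no replicate check, and their intervals rest on the longest transcripts.

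Of the apoptosome genes, *Apaf1* (chromosome 10, 90452056 to 90545515, minus strand) encodes the scaffold of the complex. Its value was 92 in WT and 59 in the deficient library, approximately 149 and 83 reads, with a ratio of 0.641 and an interval from 0.488 to 0.851. This ratio was close to the middle of its range of levels, where 41.9% of genes had a ratio as low or lower. *Casp9*, on chromosome 4 from 141349527 to 141371891 (plus strand), encodes the caspase that the apoptosome activates. It had 37 in WT and 43 in the deficient library, approximately 36 reads in each, with a ratio of 1.16 and an interval from 0.710 to 1.89. These values are not above those of genes that thymocytes are not known to use, since 23.8% of olfactory receptor genes in WT and 18.3% in the deficient library were at least as high. *Casp9* overlaps the antisense gene *Cela2a*, which had 5 and 22, by 1015 bases. A difference in *Casp9* was not detectable at this depth.

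*Casp2*, the most conserved of the caspases, lies on chromosome 6 from 42214984 to 42232507 (plus strand). It had a level of 225 in WT and 114 in the deficient library, approximately 196 and 86 reads. The ratio was 0.507 with an interval from 0.390 to 0.659, just short of a 2-fold reduction. Among high genes, 58.2% had a ratio as low or lower, so the reduction of *Casp2* was that of a typical gene of its level. *Casp6*, an executioner caspase that cleaves nuclear lamins, lies on chromosome 3 from 129604343 to 129617021 on the plus strand. It had 125 in WT and 65 in the deficient library, approximately 45 and 20 reads, with a ratio of 0.520 and a wide interval from 0.288 to 0.891. Of the genes in its range of levels, 22.4% had a ratio as low or lower.

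**Figure D3:**
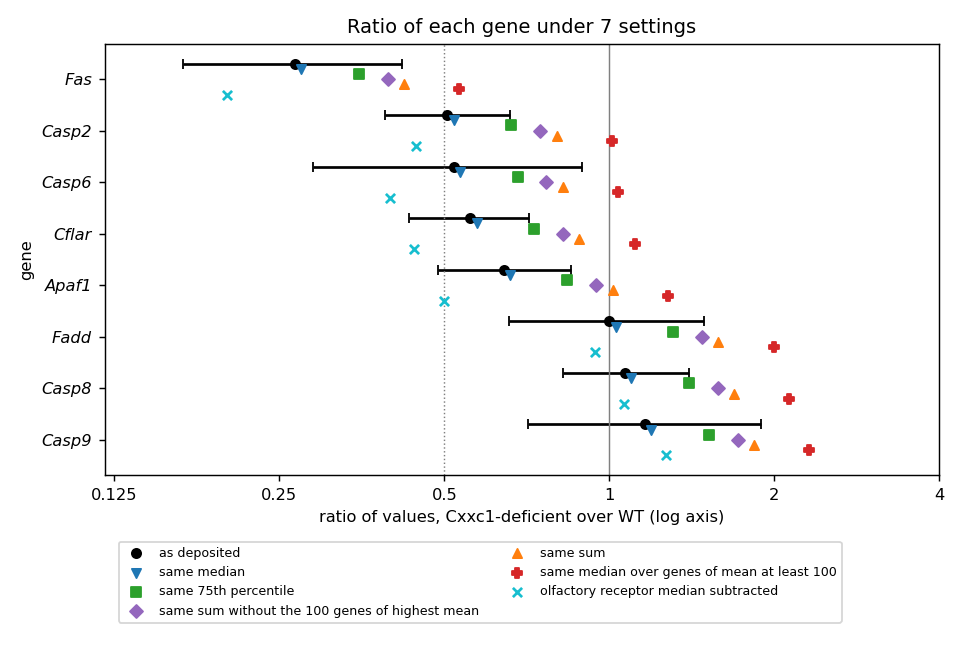
Ratio of the value in the deficient library over that in WT (log axis) for each of the 8 genes under 7 settings, namely the values as deposited with their approximate 95% intervals, 5 scalings of the libraries and the subtraction of the olfactory receptor median; vertical lines mark ratios of 1 and 0.5. *Fas* lies below 1 in each setting, from 0.201 to 0.533; *Casp2*, *Casp6* and *Cflar* pass 1 with the same median over high genes, and *Apaf1* with that scaling and with the same sum; *Fadd*, *Casp8* and *Casp9* lie from 0.943 to 2.32.

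CXXC1 binds DNA at unmethylated CpG, and the 8 genes differ widely in the CpG content of their promoters. In DP thymocytes, however, the paper found few of the CXXC1-binding sites at CpG islands, although it reports binding enriched at island centres. It also found that a CXXC1 mutant without DNA-binding activity still let deficient cells reach the DP stage. The CpG numbers below are thus not a measure of CXXC1 binding. In RefSeq windows from 250 bases before to 50 bases after the start, the motif CG, which reads the same on both strands, occurred 5 times at *Casp8*, 12 at *Cflar*, 14 at *Fas*, 16 at *Casp6*, 22 at *Fadd*, 26 at *Casp2*, 28 at *Casp9* and 46 at *Apaf1*. Over all 32851 windows of the same length the median was 7, with quartiles of 3 and 20, and 94.6% of windows held at least 1. *Casp8* was thus the single gene of the 8 below that median, and 1.65% of windows held at least as many as *Apaf1*. The windows of all 8 genes matched mm9 exactly at 1 place each. The window of *Casp8* is placed at the downstream one of its annotated starts, 7128 bases inside the gene, and the window at the upstream start holds 6 CpG. The sequences of the gene with the largest reduction, of *Casp8* and its neighbour, and of the gene richest in CpG are shown 5′ to 3′ as RefSeq gives them for GRCm38.p6, with the position found by match in mm9, and each CG is in capitals.

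*Fas* promoter, mm9 chr19:34364899-34365198, plus strand: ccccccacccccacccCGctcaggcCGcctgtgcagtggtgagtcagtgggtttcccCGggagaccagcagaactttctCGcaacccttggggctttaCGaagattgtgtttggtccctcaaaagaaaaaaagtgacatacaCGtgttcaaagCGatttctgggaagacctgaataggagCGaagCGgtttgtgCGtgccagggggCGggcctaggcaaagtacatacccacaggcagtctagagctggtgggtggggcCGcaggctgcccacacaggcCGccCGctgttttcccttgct

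*Casp8* promoter, mm9 chr1:58859096-58859395, plus strand: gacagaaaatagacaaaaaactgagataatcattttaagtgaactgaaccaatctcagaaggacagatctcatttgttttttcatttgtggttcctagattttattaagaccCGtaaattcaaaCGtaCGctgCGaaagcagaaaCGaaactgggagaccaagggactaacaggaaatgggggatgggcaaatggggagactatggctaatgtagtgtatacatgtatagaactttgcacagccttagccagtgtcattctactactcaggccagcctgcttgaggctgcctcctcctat

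*Cflar* promoter, mm9 chr1:58768085-58768384, plus strand: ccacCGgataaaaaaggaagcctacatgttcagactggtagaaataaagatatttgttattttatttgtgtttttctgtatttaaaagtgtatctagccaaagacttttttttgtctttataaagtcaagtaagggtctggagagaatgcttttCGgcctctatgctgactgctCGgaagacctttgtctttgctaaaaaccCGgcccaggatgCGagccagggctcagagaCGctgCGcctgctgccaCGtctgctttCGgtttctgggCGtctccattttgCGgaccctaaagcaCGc

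*Apaf1* promoter, mm9 chr10:90545439-90545738, minus strand: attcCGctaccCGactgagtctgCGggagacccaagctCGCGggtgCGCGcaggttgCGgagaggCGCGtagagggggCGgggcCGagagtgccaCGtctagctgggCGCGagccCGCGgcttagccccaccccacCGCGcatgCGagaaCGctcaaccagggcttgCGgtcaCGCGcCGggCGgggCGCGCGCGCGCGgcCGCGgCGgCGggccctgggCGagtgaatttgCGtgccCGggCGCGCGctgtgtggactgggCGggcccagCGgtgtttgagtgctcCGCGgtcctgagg

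In these windows the CG of *Cflar*, all but the first, lie in the later part, those of *Apaf1* run through the whole window, and the 5 of *Casp8* sit together near its middle. The number of CpG did not order the ratios of the 8 genes: *Apaf1* with 46 and *Fas* with 14 were both lower, and *Casp9* with 28 and *Casp8* with 5 were not. Among high genes, of which 80.5% had a window, 9.88% of the 81 with 0 to 5 CpG were not lower in the deficient library, beside 3.39% of the 1355 genes with over 20. The median log2 ratios of these groups were -1.14 and -1.09. The 9.88% are 8 genes, and *Casp8* itself is among them. Among moderate genes, of which 81.2% had a window, 43.4% of 242 with 0 to 5 CpG were not lower, beside 13% of 1663 with over 20. The moderate range overlaps the level of genes not used in thymocytes. Of 1102 olfactory receptor genes, 1040 had a mean under 50, 0 were high and the rest were moderate. The part of such genes in this contrast was not tested. This grouping was made after the values were seen, genes are not replicates, and the match is a description of letters, not of binding.

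**Figure D4:**
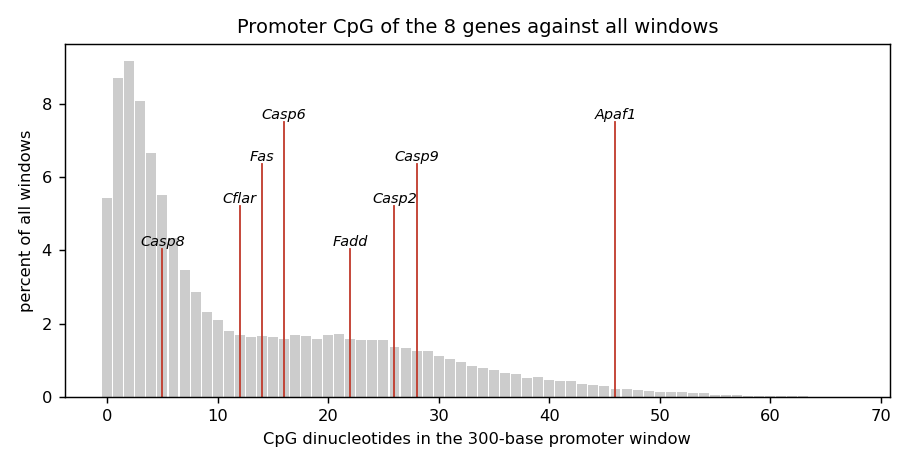
Distribution of the number of CpG dinucleotides in 300-base promoter windows (grey bars, percent of all 32851 windows), with red lines at the numbers of the 8 genes. *Casp8* lies at 5, left of the median of 7, and the other 7 genes lie from 12 to 46.

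The 8 genes were set beside 81 other genes of cell death, listed by role. Of these, 54 were lower and 27 at least 2-fold lower in the deficient library, where 60.0% and 17.4% of all genes were. Another 23 were higher, where 37.2% of all genes were, and 4 were equal. Set to the same median over high genes, 27 were lower and 54 higher, and the median log2 ratio of all genes was then 0.79. Over the 81 genes the log2 ratio had a median of -0.58, which followed the level, being -1.22 for the 19 high, -0.67 for the 27 moderate and 0.08 for the 35 low genes. Over all genes of these 3 ranges the medians were -1.08, -0.53 and 0. At least 2-fold lower were 16 of the 19 high genes, where 56.8% of all high genes were, 8 of the 27 moderate genes, where 20% were, and 3 of the 35 low genes, where 9.75% were. At least 2-fold higher were 0 of the 8 and 1 of the 81, where 5.89% of all genes were. The 1 gene was *Tnfrsf10b*, a death receptor gene with 8 and 19, at most 13 reads.

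Of the 6 other caspase genes, 3 were lower and 3 were higher, where 60.0% and 37.2% of all genes were, with a median log2 ratio of -0.12. Of the 6, 4 were low genes, of which 47.8% were lower and 48.5% higher over the whole table. *Casp12* had 39 in WT and 43 in the deficient library. At least as high were 21.8% of olfactory receptor genes in WT and 18.3% in the deficient library. The 10 death ligands and other death receptors had WT values from 8 to 88, and their median log2 ratio was 0. In this list *Tnfrsf1a*, a receptor of tumour necrosis factor, had 88 and 46, and *Eda2r* had 47 and 51. *Fas* was thus the highest death receptor gene of WT DP thymocytes among those listed.

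Of 19 genes of receptor adaptors and platforms, 15 were lower and 7 were at least 2-fold lower, where 60.0% and 17.4% of all genes were, and 5 of the 19 were high genes. *Casp8ap2*, which encodes a protein that binds the death effector domains of caspase-8, had 391 and 152 and was 2.57-fold lower. *Itch*, a ubiquitin ligase that targets CFLAR, had 308 and 151, and *Cyld*, a deubiquitinase of receptor complexes, had 144 and 63. *Madd*, whose product binds the death domain of a tumour necrosis factor receptor, had 137 and 67. *Faim*, an inhibitor of FAS-induced apoptosis, had 139 and 37 and was 3.76-fold lower, and *Sharpin*, a subunit of the linear ubiquitin ligase, had 98 and 38. *Tnfaip3*, which encodes the ubiquitin-editing enzyme A20, differed from these, with 389 and 381 and a ratio of 0.979 with an interval from 0.867 to 1.104. Like *Casp8*, *Tnfaip3* was a high gene whose interval held 1, at approximately 595 and 502 reads.

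Of 12 apoptosome and mitochondrial genes, 10 were lower and 6 were at least 2-fold lower, beside the same shares of 60.0% and 17.4% of all genes. Of the 12, 2 were high and 7 were low genes. Among the 6, *Endog* rested on approximately 5 and 1 reads, with an interval of the ratio from 0.0049 to 2.07. *Hspa8*, also among them, was a low gene by its values, 39 and 9. Reads that did not map uniquely were not kept, so low values in this list can understate the RNA. The channel genes *Vdac1* and *Vdac2* had 216 and 93, and 122 and 31. *Diablo*, which releases caspases from their inhibitors, had 93 and 45. *Ptma*, whose product restrains the apoptosome, had 262 and 32 and was 8.19-fold lower, but it has processed copies, with which unique mapping can leave reads uncounted, so its values are uncertain. Of the 10 inhibitor of apoptosis genes, 5 were lower and 5 higher, where 60.0% and 37.2% of all genes were. The 3 most abundant were lower, with *Birc2* at 331 and 109, *Xiap* at 269 and 130, and *Birc6* at 248 and 165. These 3 were high genes, of which 95.2% were lower and 56.8% at least 2-fold lower over the whole table. XIAP inhibits several caspases directly. The other 7 had WT values from 8 to 83.

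Of 20 caspase substrates and executors, 15 were lower and 11 were at least 2-fold lower, but 9 of the 20 were high genes, of which 95.2% were lower and 56.8% at least 2-fold lower over the whole table. *Satb1*, a chromatin organizer abundant in thymocytes and cleaved in apoptosis, had 6080 and 1492. *Rock1* and *Stk4*, kinases that caspases activate by cleavage, had 1001 and 332, and 773 and 314. Among the others at least 2-fold lower were *Acin1* (378 and 128), *Pak2* (256 and 114), *Sptan1* (232 and 114), *Lmnb1* (197 and 45), *Prkcd* (94 and 44), *Gsdmd* (73 and 34) and *Panx1* (68 and 34). The largest reduction among them was 4.38-fold for *Lmnb1*, the lamin B1 gene. *Bid*, whose product links caspase-8 to mitochondria once cleaved, had 60 in WT and 100 in the deficient library. The interval of its ratio, from 1.05 to 2.59, widened to 0.569 to 5.13 and held 1 with reads on the shortest transcript, and *Bid* was named after its values were seen. The genes nearest to the median of the 8 in log2 value of both libraries were *Parp1* (120 and 68, at a distance of 0.053), *Madd* (0.15) and *Cyld* (0.23), a likeness over 2 libraries only.

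**Figure D5:**
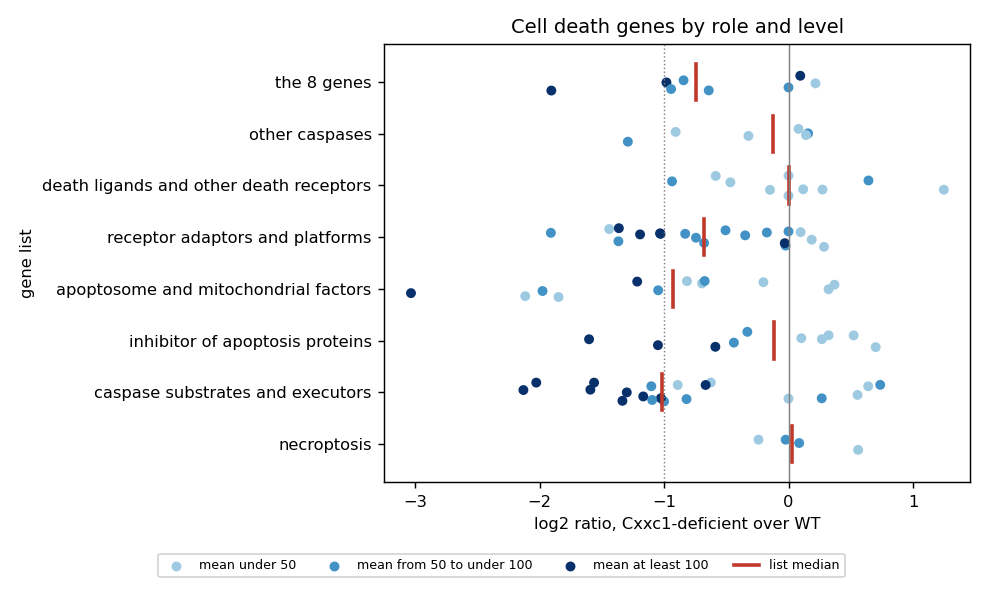
Log2 ratio of *Cxxc1*-deficient over WT for the 8 genes and for 7 lists of other cell death genes; each point is a gene, its colour gives the range of the mean of both libraries and red bars are list medians. In the values as deposited, the points of high genes lie to the left of 0 except *Casp8* at 0.09. The list medians run from -1.01 for substrates and executors to 0.03 for necroptosis genes. Scaled to the same median over high genes, 54 of the 81 other genes are higher, and the median log2 ratio of all genes is 0.79.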

How the data were processed

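RNA-seq of DP thymocytes was analysed for 1 WT and 1 *Cxxc1*-deficient library. Per the labels and the methods of the study, the authors prepared mRNA libraries with a kit that does not mark strand. They obtained Illumina reads with CASAVA 1.8.2, mapped them to mm9 with Bowtie 1.0.1, kept uniquely mapped reads and used Partek. Values were deposited as a score, meaning expression per gene normalized and rounded by the authors; the unit and the gene annotation are not given in the sources used here.

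The value of 1 read was found by a search for the constant at which values are whole reads times the constant over the transcript length. For genes with 1 GENCODE vM1 transcript of at most 1500 bases, 73.9% of 2377 values in WT and 72.9% of 2580 in the deficient library equalled the rounded value of a whole number of reads exactly, against 18.0% to 23.1% with the constant moved by 10%. With the longest transcript of 19090 genes, approximately 1404131 reads in WT and 724538 in the deficient library fell on genes. Read numbers of single genes are approximate because the transcript used by the authors is not named.

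Ratios used a floor of 1. Intervals are Clopper-Pearson for ratios, Poisson for values and conditional exact for ratios of ratios. No test between genotypes was run. Named genes were the 8 genes, in each pathway list the 3 of highest mean and those with a mean of at least 50 that differed at least 2-fold, the 3 genes nearest to the median of the 8, and defining marker genes; any other gene was chosen after its values were seen. Some genes that this rule names are not reported here. The members and lists were chosen with earlier results of these data known. Alternatives were 5 scalings, subtraction of the olfactory receptor median, pseudocounts of 1 and 10, thresholds of 1.5- and 3-fold, a minimum mean of 50 and the shortest transcript. Scripts were tested on simulated data. Analyses ran in Python 3.11.15 with scipy 1.17.1, pandas 2.3.3 and numpy 2.4.6, and plots in matplotlib 3.10.9.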

Additional observations from a re-analysis of the deposited data

How the results depend on the processing

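The values rest on 1 library per genotype and were recomputed under other scalings and settings. Set to the same median over high genes (mean 100 or more), the libraries gave a median log2 ratio of 0.25 for the 8 genes and 0.79 for all genes; 0 of the 8 and 4 of the 81 pathway genes were at least 2-fold lower, and 23 pathway genes were at least 2-fold higher. The ratios were then 0.533 for *Fas*, 1.01 for *Casp2*, 1.04 for *Casp6*, 1.11 for *Cflar*, 1.28 for *Apaf1*, 2.0 for *Fadd*, 2.13 for *Casp8*, 2.32 for *Casp9* and 1.1 for *Cxxc1*. With the same sum, the medians were -0.081 and 0.46, the pathway counts were 7 lower and 9 higher, and the ratios were 0.422 for *Fas*, 0.801 for *Casp2*, 0.881 for *Cflar*, 1.01 for *Apaf1*, 1.58 for *Fadd* and 1.69 for *Casp8*. With the same sum without the 100 highest genes, the medians were -0.18 and 0.36, the pathway counts 10 and 8, and the ratios 0.748 for *Casp2*, 0.823 for *Cflar*, 0.947 for *Apaf1* and 1.58 for *Casp8*. With the same 75th percentile, the medians were -0.36 and 0.19, the pathway counts 11 and 5, and the ratios 0.663 for *Casp2* and 0.729 for *Cflar*. Each of these shifts follows from the factor applied to the *Cxxc1*-deficient library, from 1.31 to 2.0. Subtraction of the olfactory receptor median gave medians of -1.09 and -0.44, 5 of the 8 with a 2-fold or larger reduction and 7 pathway genes at least 2-fold higher; a pseudocount of 10 gave 0 of the latter, against 1 as deposited. At 1.5-fold, 5 of the 8 and 41 of the 81 genes were lower, and at 3-fold 9 of the 81 were. Shares over all genes under these scalings and thresholds are not given here, so none of these counts is read as a result about cell death genes. With the shortest annotated transcript in place of the longest, the interval lay below 1 for 1 gene, *Fas*, instead of 5, since fewer reads are then assumed. The other 71 values stayed within their interval, within 0.1 for a median or within 1.5 times for a count. No paired analysis was possible because there was a single library of each genotype, without any test.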

Other observations

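Genes of necroptosis and of the inflammatory caspases had values of at most 64 in both libraries. Of the 4 necroptosis genes, *Ripk3*, which encodes the kinase that activates MLKL, had 39 in WT and 33 in the deficient library, *Zbp1* had 49 and 52, and *Ticam1* had 64 and 63. Their median log2 ratio was 0.03. The inflammatory caspase genes *Casp1* and *Casp4* had 35 and 37, and 25 and 20, and *Dfna5*, a gasdermin gene, had 34 and 53, with an interval of the ratio from 0.982 to 2.42. The last 3 genes were chosen after their values were seen. These values lie near or within the range of olfactory receptor genes, up to 53.95 in WT and 57 in the deficient library at the 95th percentile.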
